A study of Homo sapiens with 12 samples.

Results

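The genes described here are 10 secreted inflammatory mediators, IL6, LIF, IL1A, IL1B, CXCL8, CXCL1, CXCL2, CXCL3, CCL2 and CCL20, taken by name from a table of 35238 genes. All 10 were present in the table. They were measured by bulk RNA sequencing in HK-2, an immortalised line derived from proximal tubule of human kidney. In the SCR groups the cells carried 10 nM of a scrambled siRNA duplex. In the siB groups they carried 10 nM of siRNA-B against POLR2A, which encodes the largest subunit of RNA polymerase II. Differences between siB and SCR thus rest on that siRNA alone. Every group was transfected and, at the same time, kept for 24 hours with either DMSO as vehicle or AAI (aristolochic acid I) at 25 µM; AAI is a nephrotoxin of Aristolochia plants that forms DNA adducts. Each of the 4 groups (SCR DMSO, SCR AAI, siB DMSO and siB AAI) had 3 replicates, 12 libraries in all, and nothing in the labels says whether replicates were separate cultures, so p-values measure the spread between these libraries, which may be technical.

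IL-6 and LIF are cytokines of one family and signal through the shared receptor subunit gp130 (IL6ST) to the kinase JAK1 and the transcription factor STAT3. IL-1α and IL-1β act through IL1R1 and MYD88 to activate NF-kappaB, the transcription factor that switches on most of the other genes of the set. CXCL1, CXCL2, CXCL3 and CXCL8 attract neutrophils through CXCR1 and CXCR2, CCL2 attracts monocytes through CCR2, and CCL20 attracts CCR6-bearing lymphocytes. Injured tubular epithelium is a known source of several of them, and their messages are short-lived, many of them carrying AU-rich elements in the 3′ untranslated region.

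The stretches upstream of the start site are shown for IL6, the gene with the widest replicate spread, for CXCL8, the most abundant of the set, and for CXCL1 and CXCL2, genes of the same chemokine cluster whose upstream sequences are nearly identical and whose levels differ greatly. They are RefSeq promoter sequences, given on hg38, from base -110 to base -54 relative to the RefSeq start, a stretch of 57 bases that overlapped no annotated exon. Capitals mark matches to the 10-base NF-kappaB consensus on either strand.
IL6 (chr7:22727090-22727146, plus strand): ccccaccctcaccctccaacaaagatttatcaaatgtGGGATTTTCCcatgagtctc
CXCL8 (chr4:73740459-73740515, plus strand): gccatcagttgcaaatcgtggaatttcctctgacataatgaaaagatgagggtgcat
CXCL1 (chr4:73869283-73869339, plus strand): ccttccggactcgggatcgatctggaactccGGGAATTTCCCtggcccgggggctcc
CXCL2 (chr4:74099249-74099305, minus strand): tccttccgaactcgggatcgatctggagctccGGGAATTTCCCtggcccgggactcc

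A promoter sequence was at hand for 8 of the 10 genes, all but LIF and CCL2. Within 250 bases upstream of the start, IL6, CXCL1, CXCL2, CXCL3 and CCL20 held a match to the NF-kappaB consensus, which 9.96% of 35116 promoters of that length held. In CXCL1, CXCL2 and CXCL3 the match read on both strands, at positions 1 base apart in the same run of letters. CXCL8, IL1A and IL1B held none in this window, which says only that these exact letters are absent from it. The C/EBP consensus TTNNGNAA, searched on both strands, was found in IL6 at base -155, in CXCL2 at base -188, and in IL1A and IL1B, against 33.2% of all promoters. The AP-1 consensus TGANTCA, searched the same way, was found in CXCL8 at base -137 and in IL1A, against 6.57% of all promoters. Over 110 bases upstream of the start, CXCL1 and CXCL2 were 94.5% identical, CXCL1 and CXCL3 90.0%, and CXCL1 and CXCL8 48.2%.

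The 4 CXC genes lie on chromosome 4 (CXCL8 at 73740519 to 73743716, CXCL1 at 73869393 to 73871308, CXCL3 at 74036589 to 74038807 and CXCL2 at 74097040 to 74099196, hg38). IL6 lies on chromosome 7 (22725884 to 22732002, plus strand) and LIF on chromosome 22 (30240453 to 30246759, minus strand). Each of these last 2 genes overlaps 2 annotated genes of the opposite strand, and whether counting used strand was not stated, so their counts may include antisense reads. IL1A and IL1B are neighbours on the minus strand of chromosome 2 (112773925 to 112784493 and 112829751 to 112836816), CCL20 lies on the same chromosome (227805739 to 227817564, plus strand) and CCL2 on chromosome 17 (34255274 to 34257208, plus strand). Transcripts of CXCL1, CXCL2 and CXCL3 shared between 0.533% and 5.63% of their 50-base words pairwise, and how reads from such stretches were assigned is not stated. The pentamer ATTTA, the core of AU-rich elements, occurred 6 times in the 3′ untranslated region of IL6 (14.1 per kb, more than in 99.5% of 19526 protein-coding transcripts) and 10 times in that of CXCL2 (14.0 per kb, more than in 99.4%). It was also dense in CXCL3 (10.4 per kb), IL1B (9.84), CXCL1 (7.77), CXCL8 (7.19) and CCL20 (6.34), and sparser in IL1A (4.38), CCL2 (2.66) and LIF (2.19), against a median of 1.5 per kb over all transcripts.

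Depth ran from 15844015 to 42805294 reads per library, and a gene with 0 reads could have a level of up to 0.0701 to 0.189 CPM (counts per 1000000 reads), the value of 3 reads; such limits cover counting error only. SCR DMSO replicate 2 stood apart from its group along the second principal component (-62.2, against 57.8 and 20.0 for replicates 1 and 3). POLR2A was at 258 to 306 CPM in SCR DMSO and 138 to 143 CPM in siB DMSO, and at 673 to 729 CPM in SCR AAI and 210 to 266 CPM in siB AAI. Kidney epithelial markers were present (KRT8 at a mean of 657 CPM, PAX8 at 341 CPM), while 7 of 10 proximal tubule markers averaged under 1 CPM, GGT1 (134 CPM) being the most abundant. Of 12 leukocyte markers, CD3E, S100A8 and S100A9 were at 0 in every library, 6 averaged under 1 CPM, and CD68 (75.5 CPM), a lysosomal protein also made by other cells, supplied most of the summed level of 85.0 to 115 CPM.

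Per kilobase of transcript, the mean level over all libraries was highest for CXCL8 (107 CPM per kb), followed by LIF (25.6), IL6 (17.1) and CXCL2 (7.07). These 4 genes were above 1 CPM in all 12 libraries. The other 6 genes were weak, from CXCL3 (0.778 CPM per kb) through CCL20 (0.345), IL1A (0.197), IL1B (0.137) and CCL2 (0.103) to CXCL1 (0.0424). CXCL3 was above 3 reads in every library and IL1A in all but 1, whereas CCL2 was never above 3 reads.

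IL6 was at 2.63, 20.6 and 16.8 CPM in SCR DMSO replicates 1 to 3 and at 3.15, 44.5 and 48.7 CPM in SCR AAI. In siB DMSO it was at 13.8, 16.2 and 17.1 CPM, and in siB AAI at 2.71, 22.9 and 21.7 CPM. In 3 of the 4 groups replicate 1 was therefore far below the other libraries, and siB DMSO was the exception. The mean of replicates 2 and 3 over replicate 1 was 7.10 in SCR DMSO, 14.8 in SCR AAI and 8.22 in siB AAI, but 1.21 in siB DMSO. By group mean, SCR AAI stood highest (32.1 ± 25.2 CPM, SD, n = 3), followed by siB AAI (15.8 ± 11.3), siB DMSO (15.7 ± 1.73) and SCR DMSO (13.3 ± 9.46), and no neighbours in that order differed beyond their spread. The low values were not at the limit of detection, since no library had fewer than 43 reads of IL6.

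LIF, which holds stem cells undifferentiated and is released by injured epithelium, was at 90.3, 165 and 96.4 CPM in SCR DMSO and at 72.7, 93.6 and 98.7 CPM in SCR AAI. It was at 110, 117 and 119 CPM in siB DMSO and at 78.8, 65.5 and 81.9 CPM in siB AAI. The siB groups did not overlap, whereas the SCR groups did, and the value of 165 CPM came from the library that stood apart from its group. The share of all genes whose groups separate in this way was not counted, for LIF or for CXCL8 and CXCL2 below. Replicate 1 was not set off in LIF as it was in IL6.

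CXCL8, which encodes interleukin 8, was at 136, 115 and 97.1 CPM in SCR DMSO and at 256, 238 and 284 CPM in SCR AAI. It was at 127, 115 and 114 CPM in siB DMSO and at 195, 219 and 210 CPM in siB AAI. Every AAI library lay above every DMSO library, with either siRNA, and the 2 DMSO groups overlapped. The order of group means was SCR AAI (259 ± 23.0 CPM), siB AAI (208 ± 11.9), siB DMSO (119 ± 7.01) and SCR DMSO (116 ± 19.5), and the last pair did not differ beyond their spread. All SCR AAI libraries lay above all siB AAI libraries, but that difference did not pass the test given further on.

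CXCL2 was at 5.55, 7.80 and 8.86 CPM in SCR DMSO and at 2.10, 12.4 and 11.3 CPM in SCR AAI. It was at 9.06, 11.6 and 9.87 CPM in siB DMSO and at 2.78, 7.71 and 5.52 CPM in siB AAI. As with IL6, replicate 1 was the lowest library of each group, by most in the AAI groups: the mean of replicates 2 and 3 over replicate 1 was 5.64 in SCR AAI and 2.38 in siB AAI, against 1.5 in SCR DMSO and 1.19 in siB DMSO. The siB groups did not overlap, with all siB AAI libraries below all siB DMSO libraries. Changes were common there, since 52.2% of all genes tested had an adjusted p under 0.05 for AAI in siB cells (limma).

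**Figure D1:**
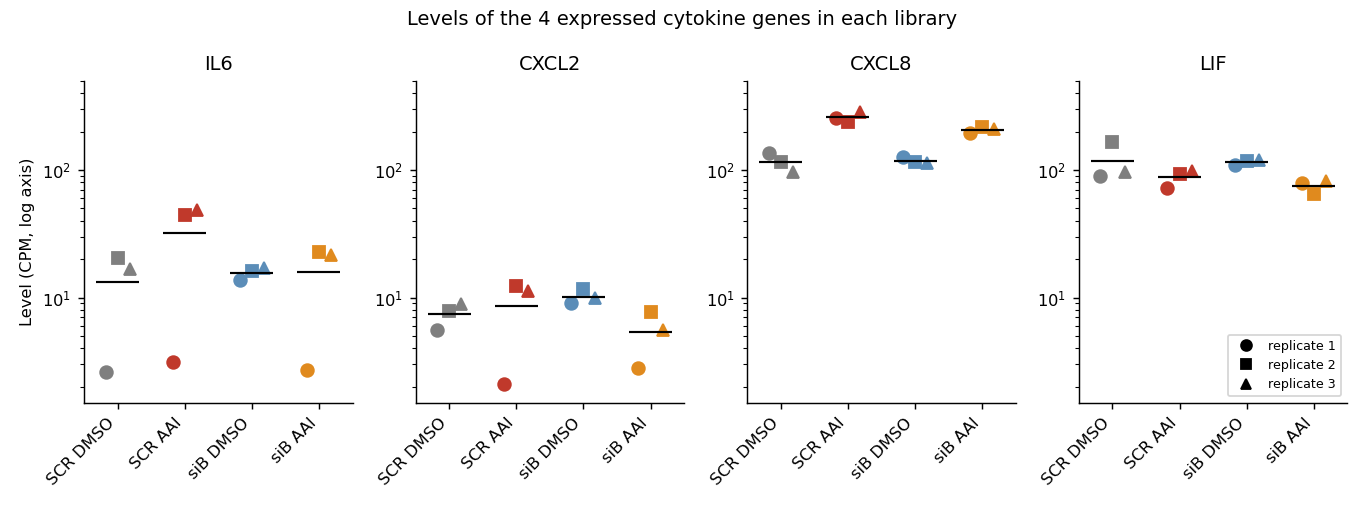
Levels of IL6, CXCL2, CXCL8 and LIF in each of the 12 libraries (CPM, log axis), by group on the horizontal axis, with 1 point per library, its shape giving the replicate number, and a line at the group mean. Replicate 1 (circles) of IL6 sits at 2.63 to 3.15 CPM in 3 groups, with all other libraries at 13.8 CPM or more, and CXCL8 is higher in every AAI library (195 to 284 CPM) than in every DMSO library (97.1 to 136 CPM).

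The remaining members gave few reads. CXCL3 ran from 0.323 to 1.39 CPM (6 to 48 reads) and passed 1 CPM in 4 libraries, all with DMSO: SCR DMSO replicates 1 and 2 and siB DMSO replicates 2 and 3. IL1A ran from 0.0934 to 0.956 CPM (2 to 26 reads), CCL20 from 0.0631 to 0.699 CPM (1 to 19 reads) and IL1B from 0 to 0.831 CPM (0 to 18 reads). CCL2 never exceeded 3 reads in a library (20 reads over all 12), and CXCL1 was at or under 3 reads in 11 of 12 libraries, with 8 reads in SCR DMSO replicate 2. At this depth no change in CCL2 or CXCL1 was detectable. CXCL1 thus had 16 reads in all where CXCL2, with the nearly identical upstream sequence printed above, had 2256.

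**Figure D2:**
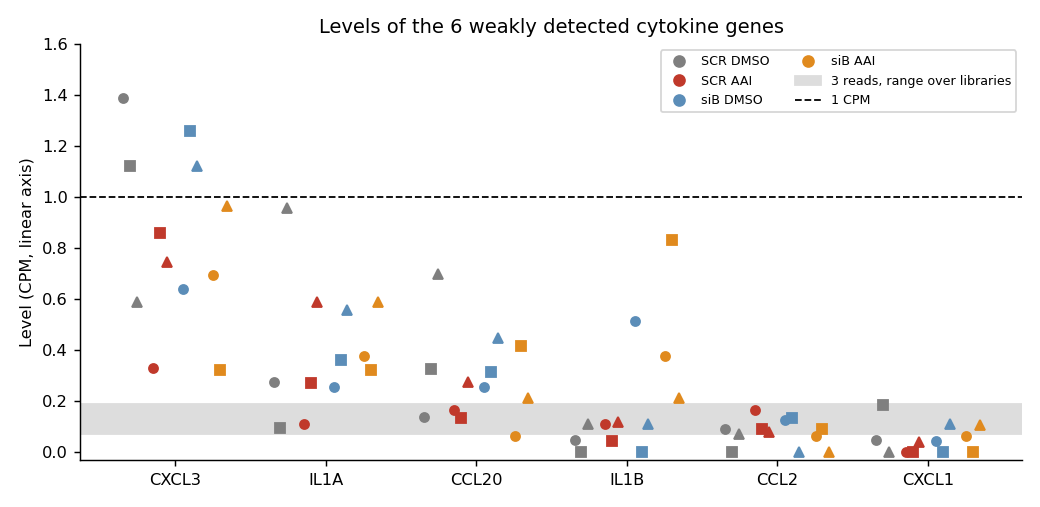
Levels of CXCL3, IL1A, CCL20, IL1B, CCL2 and CXCL1 (CPM, linear axis), 1 point per library, coloured by group, with circles, squares and triangles for replicates 1, 2 and 3. The dashed line marks 1 CPM, which only CXCL3 passes, in 4 libraries, and the grey band (0.0701 to 0.189 CPM) is the value of 3 reads across libraries, within or under which most points of CCL2 and CXCL1 lie.

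To ask how unusual the spread of IL6 was, the residual SD between replicates over the 4 groups was taken on the log2(CPM + 1) scale for the 15325 genes with at least 1 CPM in at least 3 libraries. That of IL6 was 1.46, larger than that of 99.9% of genes, against a median of 0.29. By group the SD of IL6 was 1.41 in SCR DMSO, 2.03 in SCR AAI and 1.53 in siB AAI, and only 0.15 in siB DMSO. CXCL2 had a residual SD of 0.69, larger than that of 95.4% of genes, made up mostly of its SD of 1.19 in SCR AAI. Without SCR AAI replicate 1 it was 0.38, larger than that of 70.9% of genes. LIF (0.28, above 47.5% of genes) and CXCL3 (0.27, above 46.2%) were near the median, and CXCL8 (0.15, above 8.74%) was among the steadier genes. Of the members tested, then, CXCL2 came nearest to the spread of IL6, and LIF and CXCL8 did not have it. For CXCL3, a low gene, the value depended on the pseudocount. With a pseudocount of 0.1 its residual SD was 0.59, against 0.82 for CXCL2, 1.62 for IL6 and a median of 0.35 over all genes. With replicates 2 and 3 alone, an alternative chosen after seeing the data, the residual SD of IL6 was 0.11 (above 9.06% of genes) and that of CXCL2 0.18.

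**Figure D3:**
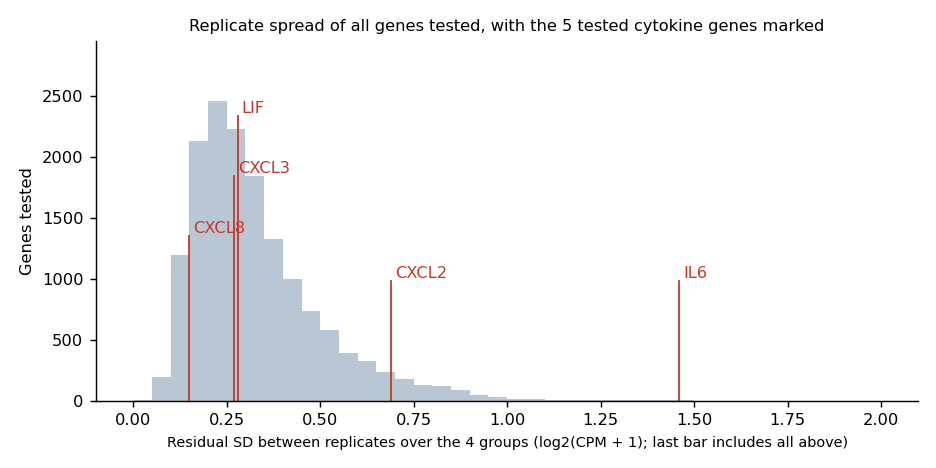
Distribution of the residual SD between replicates (horizontal axis, log2(CPM + 1) scale) over 15325 genes (vertical axis, number of genes per bar), with red lines at the 5 cytokine genes that passed the filter. IL6 at 1.46 lies in the far right tail and CXCL2 at 0.69 in the upper tail, while LIF (0.28), CXCL3 (0.27) and CXCL8 (0.15) lie near or under the median of 0.29.

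Whether other members moved with IL6 inside groups was tested in limma by the slope of each gene on the level of IL6, with the group means as terms, over 15324 genes. CXCL2 passed, with a slope of 0.44 (SE 0.07, adjusted p 0.00936), that is 0.44 log2 units of CXCL2 for each log2 unit of IL6. It was 1 of 4 members tested besides IL6, and 5.35% of all genes passed, 271 with a positive slope and 549 with a negative one. The slopes of LIF (0.10, SE 0.06, adjusted p 0.297), CXCL8 (-0.02, SE 0.04, adjusted p 0.824) and CXCL3 (0.02, SE 0.07, adjusted p 0.844) did not pass. The 3 libraries low in IL6 formed a cluster of their own, and whether CXCL2 passed depended on the AAI libraries among them. Without SCR AAI replicate 1 the slope of CXCL2 was 0.30 (adjusted p 0.0932), and without siB AAI replicate 1 it was 0.46 (adjusted p 0.0525). CXCL2 still passed without SCR DMSO replicate 1, but not without the 2 libraries farthest from the group mean of IL6. With replicates 2 and 3 alone the slope of CXCL2 was -0.45 (adjusted p 0.845). With a replicate block the slope was 0.47 (adjusted p 1.0) and 0 of 15324 genes passed.

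The replicate number itself, which the titles share across groups, was tested as a term beside the group in limma. No member passed over all genes, and percent called was 0 for the whole table, with IL6 at an adjusted p of 0.0680 (0.0680 was also the lowest of all genes) and CXCL2 at 0.0965. At an unadjusted p under 0.05 there were 2 of 5 members and 4059 of 15325 genes. Over the 4 groups together, IL6 was higher in replicates 2 and 3 than in replicate 1 by 2.23 and 2.20 log2 units, and CXCL2 by 1.02 and 0.87. Without SCR DMSO replicate 2, the library that stood apart, both IL6 and CXCL2 passed, as did 2102 genes in all. IL6 alone of the members passed without siB DMSO replicate 1, the replicate 1 that was not low in IL6 (84 of 15301 genes passed). The same held without siB AAI replicate 2 (827 of 14964 genes).

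**Figure D4:**
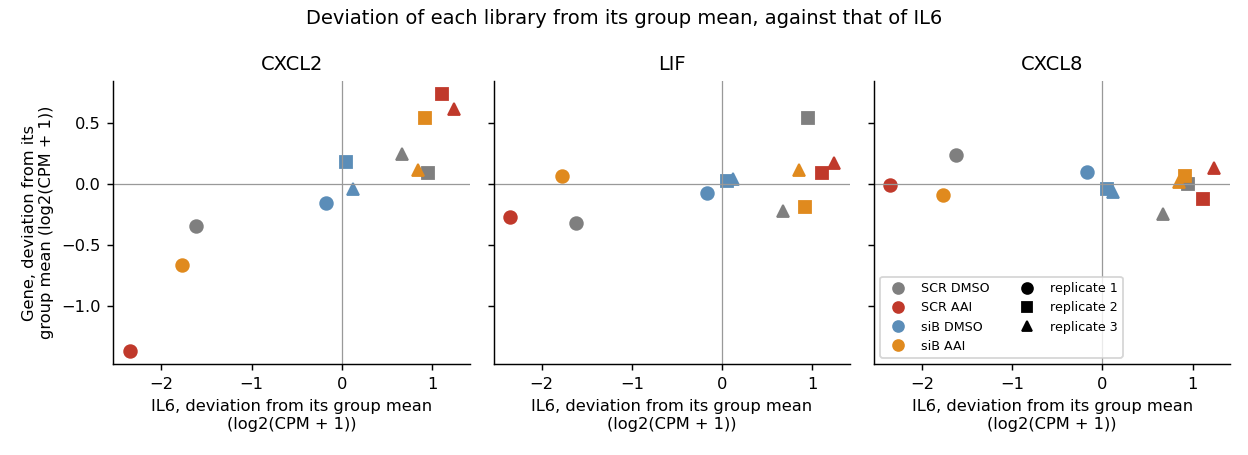
Deviation of each library from its group mean (log2(CPM + 1)) for CXCL2, LIF and CXCL8 (vertical axes) against the same deviation of IL6 (horizontal axes), coloured by group, with circles, squares and triangles for replicates 1, 2 and 3. The 3 circles at the left are replicate 1 of SCR DMSO, SCR AAI and siB AAI (IL6 deviations of -1.62, -2.35 and -1.77), where CXCL2 deviates by -0.34, -1.37 and -0.66, LIF by -0.32, -0.27 and 0.07, and CXCL8 by 0.24, -0.01 and -0.09.

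Ranked by the correlation of these deviations over 12 libraries, among 11580 genes with a mean of at least 5 CPM, the genes most like IL6 included OTUB2, a deubiquitinase (r = 0.99), CPT1A, the carnitine acyltransferase that admits fatty acids to mitochondria (0.98), KRTAP2-3, a keratin-associated protein (0.98), and POLR1A, the largest subunit of RNA polymerase I (0.98). These values are a description, share the group means and the 3 low libraries, and say nothing of shared control. KRTAP2-3 was at 2.22, 34.9 and 17.2 CPM in SCR DMSO and at 1.16, 19.4 and 21.8 CPM in SCR AAI. It was at 0.568, 6.09 and 5.89 CPM in siB AAI and at 9.45, 10.6 and 9.20 CPM in siB DMSO. Its replicate 1 was therefore set off in the same groups as that of IL6. On the same measure CXCL2 stood at 0.92, a value that 0.790% of genes reached.

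Some other measures, AC010970.2 and CDH6 among them, also differed between replicates, but not in the same 3 libraries alone. AC010970.2, a transcript that took up to 10.6% of reads, was at 0.189%, 0.667% and 0.826% in the 3 libraries low in IL6 and at 0.616% to 10.6% in the others, so these ranges overlapped. Over all 15324 genes, 5.35% had a slope on IL6 that passed, 549 of them negative and 271 positive. Among kidney epithelial markers, 3 had a negative slope on IL6 (CDH6, -0.42, adjusted p 0.0206; EPCAM, -0.26, adjusted p 0.0204; CDH1, -0.46, adjusted p 0.0374) and PAX8 a positive one (0.19, adjusted p 0.0262), out of 9 tested. CDH6, a cadherin of the developing tubule, was at 803 CPM in SCR DMSO replicate 1 against 177 and 352 CPM in replicates 2 and 3. It was also highest in replicate 1 of siB DMSO, which was not low in IL6 (462 CPM, against 326 and 305 CPM in replicates 2 and 3). No leukocyte marker of 6 tested had a slope that passed, and of 6 fibroblast and endothelial markers DCN (0.43, adjusted p 0.0135) and PDGFRB (-0.23, adjusted p 0.0343) did, at means of 2.63 and 1.40 CPM. Their part in the spread of IL6 was not tested. CPM computed without AC010970.2 gave IL6 a residual SD of 1.49.

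A pair of signalling genes outside the set also had a positive slope on IL6. CSF2, which encodes the growth factor GM-CSF and is not a member, had a slope on IL6 of 0.46 (SE 0.06, adjusted p 0.00491). It was at 0.508, 3.99 and 2.35 CPM in SCR DMSO, at 0.994, 6.12 and 4.46 CPM in SCR AAI, at 2.56, 2.39 and 2.73 CPM in siB DMSO and at 1.07, 3.0 and 2.79 CPM in siB AAI. IER3, an early NF-kappaB target, had a slope of 0.21 (SE 0.04, adjusted p 0.0183), with levels of 67.9 to 166 CPM. They were the only genes to pass among 13 tested other chemokines and cytokines and among 15 tested NF-kappaB target genes, and none of 19 NF-kappaB subunits, inhibitors and kinases passed. With 5.35% of all genes passing in either direction, 1 of 13 and 1 of 15 are near the background. For positive slopes alone 271 of 15324 genes passed, and 1 gene per list is too few to compare with that.

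With the scrambled siRNA, AAI was compared with DMSO to follow the set through toxic injury. CXCL8 was raised and no member was lowered, of 4 members that could be tested, where 7.73% of all genes tested were raised and 2.73% lowered at least 2-fold with an adjusted p under 0.05 (1100 and 389 genes, or 935 and 695 with median-ratio scaling). CXCL8 rose by 1.16 (log2, SE 0.21, adjusted p 0.00968) and was higher in 3 of 3 libraries. IL6 changed by 0.92 (SE 1.04, 95% interval -1.48 to 3.31, adjusted p 0.611), CXCL2 by -0.05 (SE 0.55, interval -1.32 to 1.21, adjusted p 0.964) and LIF by -0.36 (SE 0.28, interval -1.01 to 0.29, adjusted p 0.451), none of which passed. The median over the tested members was 0.43 and over all genes tested 0.18. In bulk RNA, a change in the number of cells of a kind and a change in RNA per cell cannot be told apart.

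The call of CXCL8 did not hold in every setting. With median-ratio scaling, which moved the median of all genes by -0.18, its change was 0.96 (adjusted p 0.0319), under the 2-fold limit. Without SCR DMSO replicate 3 its change was 1.04 (adjusted p 0.0520), without SCR AAI replicate 3 it was 1.10 (adjusted p 0.0600), and with replicates 2 and 3 alone it was 1.29 (adjusted p 0.0536). Over its 16 alternatives the adjusted p ran from 1.3e-04 to 0.0600. CXCL2 changed sign without SCR AAI replicate 1 (0.63, adjusted p 0.323). The change of IL6 was 2.09 without SCR AAI replicate 1 (adjusted p 0.192) and 0.11 without SCR DMSO replicate 1 (adjusted p 0.949). Blocking on the replicate number gave IL6 an adjusted p of 0.0651, and its AAI to DMSO ratio within replicate numbers was 1.19, 2.17 and 2.89.

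In siB cells, AAI against DMSO raised or lowered no member by 2-fold, where 13.9% of all genes tested were raised and 5.79% lowered. Of the 4 members tested, 3 passed the adjusted p alone, in different directions, and so did 52.2% of all genes tested. CXCL8 rose by 0.80 (SE 0.10, adjusted p 1.7e-04), while LIF fell by 0.61 (SE 0.12, adjusted p 0.00187) and CXCL2 fell by 0.90 (SE 0.28, adjusted p 0.0231) on the log2 scale. Each held in 3 of 3 replicate numbers. IL6 changed by -0.40 (SE 0.59, interval -1.73 to 0.93, adjusted p 0.595), but without siB AAI replicate 1 by 0.49 (adjusted p 0.0255) and with replicates 2 and 3 alone by 0.40 (adjusted p 0.0119), so its sign turned on that library. The adjusted p of CXCL2 was above 0.05 with no filter (0.0531), with all 4 groups in the fit (0.181), and without siB DMSO replicate 2 (0.0665), siB DMSO replicate 3 (0.0542) or siB AAI replicate 3 (0.0535), and its change was -0.56 without siB AAI replicate 1. It reached the 2-fold limit with a pseudocount of 0.1 (-1.03, adjusted p 0.0277) and without siB AAI replicate 2 (-1.17, adjusted p 0.00820). The median over the tested members was -0.51 and over all genes tested 0.10.

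Among AAI libraries, siB was compared with SCR to ask what lowering POLR2A did to the set after injury. No member was called, of 4 tested, where 3.04% of all genes were raised and 0.629% lowered, and limma gave 0 of the 4 an unadjusted p under 0.05, as voom called 0. All 4 fitted changes were below 0: IL6 by -0.74 (SE 0.85, interval -2.57 to 1.09, adjusted p 0.628), CXCL2 by -0.42 (SE 0.47, interval -1.44 to 0.61, adjusted p 0.626), CXCL8 by -0.32 (SE 0.15, interval -0.64 to 0.01, adjusted p 0.203) and LIF by -0.22 (SE 0.17, interval -0.59 to 0.15, adjusted p 0.454). The median over all genes tested was 0.00.

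For IL6 this comparison depended on how the replicates were treated. Same-numbered libraries of SCR AAI and siB AAI deviated together across genes (r = 0.61, 0.32 and 0.29 for replicates 1, 2 and 3), and within replicate numbers the siB to SCR ratio of IL6 was 0.862, 0.514 and 0.446, lower in 3 of 3. With a replicate block, the change of -0.74 had an adjusted p of 1.3e-04, still under the 2-fold limit. With replicates 2 and 3 alone, IL6 fell by 1.03 (adjusted p 1.0e-04) and passed both limits, and CXCL2 fell by 0.77 (adjusted p 0.0101). Without SCR AAI replicate 1 it fell by 1.91 (adjusted p 0.00506) and CXCL2 fell by 1.10 (adjusted p 0.0103), but without siB AAI replicate 1 the change of IL6 was 0.14 (adjusted p 0.939). CXCL8 had a ratio of 0.761, 0.918 and 0.739 within replicate numbers and an adjusted p of 0.0808 with the block.

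Without injury, siB against SCR in DMSO called no member of 5 tested, CXCL3 included, and percent called was 0 in both directions over all 13606 genes, of which 644 had an unadjusted p under 0.05 (none of them a member; voom called 0 members). The changes were 0.57 for IL6 (SE 0.66, interval -1.0 to 2.14), 0.43 for CXCL2 (SE 0.23, interval -0.13 to 0.98), 0.04 for CXCL8 (SE 0.17, interval -0.36 to 0.44), 0.03 for LIF (SE 0.25, interval -0.56 to 0.62) and -0.01 for CXCL3 (SE 0.23, interval -0.56 to 0.54). The value of IL6 came from SCR DMSO replicate 1, without which it was -0.24 (adjusted p 0.788).

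**Figure D5:**
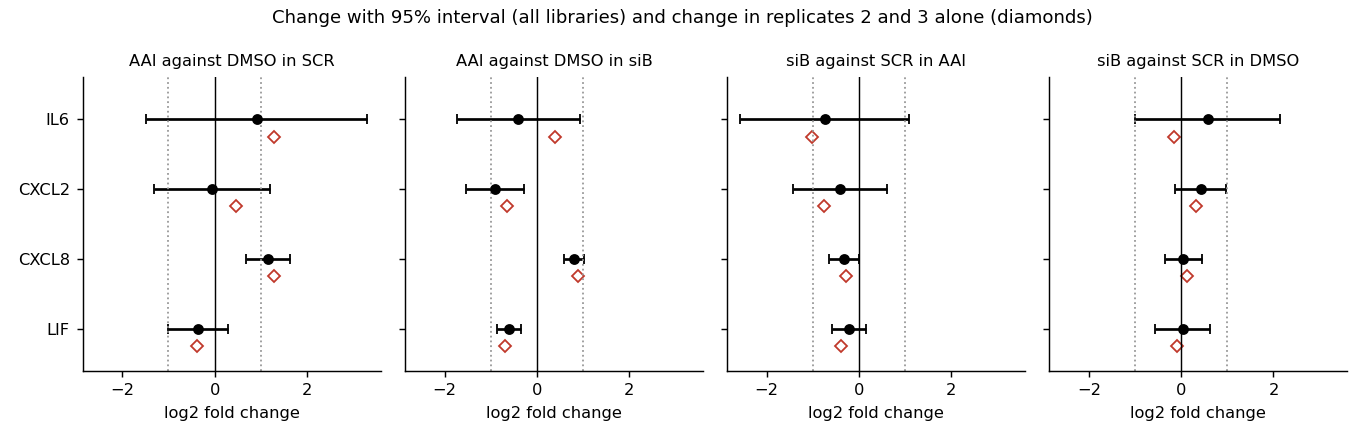
Log2 fold changes of IL6, CXCL2, CXCL8 and LIF (horizontal axes, log2(CPM + 1) scale) in the 4 pairwise comparisons, as filled points with limma's 95% intervals, and the change in replicates 2 and 3 alone as open diamonds; dotted lines mark a 2-fold change. The interval of IL6 is the widest of the 4 genes in every comparison (-1.48 to 3.31 for AAI in SCR), and its diamond lies on the other side of 0 for AAI in siB (0.40 against -0.40) and for siB in DMSO (-0.15 against 0.57).

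Whether the AAI response of the members differed between siRNAs was tested as an interaction over all 12 libraries. No member of 5 tested passed in limma, where 1.61% of all genes did, none of the 5 had an unadjusted p under 0.05, and voom called 0 members. The difference (response in siB minus response in SCR) was -1.31 for IL6 (SE 1.39, interval -4.35 to 1.72, adjusted p 0.802), -0.84 for CXCL2 (SE 0.68, interval -2.34 to 0.65, adjusted p 0.698), -0.36 for CXCL8 (SE 0.21, interval -0.81 to 0.09, adjusted p 0.519), -0.25 for LIF (SE 0.31, interval -0.92 to 0.42, adjusted p 0.837) and 0.02 for CXCL3 (SE 0.31, adjusted p 0.995). The drop of LIF and CXCL2 in siB cells was therefore not shown to differ from the response in SCR cells.

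The receptors of these mediators were followed as a list of 14 genes, 7 of them tested with AAI. None was called in SCR cells, and IL6ST, the shared subunit gp130, was raised in siB cells (1.47, SE 0.30, adjusted p 0.00295), where 3 of 7 passed the adjusted p alone, against 52.2% of all genes (13.9% were raised by the full rule). In SCR DMSO IL6ST ranged from 16.5 to 145 CPM. Its change in SCR cells was 0.92 (SE 0.71, adjusted p 0.451). The responses of IL6ST were not shown to differ between siRNAs (interaction in limma 0.56, SE 0.89, adjusted p 0.892). The median change over the list was 0.12 in SCR and 0.05 in siB cells. IL6R, the receptor subunit that binds IL-6, was raised in siB AAI over SCR AAI (1.11, SE 0.21, adjusted p 0.00870), at 58.1, 60.5 and 73.3 CPM against 21.2, 29.8 and 38.3 CPM, and was the only receptor called there. Without injury IL6R was at 43.9, 44.6 and 37.6 CPM in siB DMSO against 26.1, 13.0 and 34.7 CPM in SCR DMSO (0.85, SE 0.35, not called). Its AAI response was not shown to differ between siRNAs (interaction in limma 0.26, SE 0.43, adjusted p 0.897). OSMR was the most abundant (174 CPM), and CXCR1 and CCR2, which bind CXCL8 and CCL2, were at 0 in every library. CXCR2 averaged 0.0242 CPM.

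Of 8 further cytokines of the IL-6 and IL-1 families, OSM, oncostatin M, was raised in SCR cells (adjusted p 0.00231). OSM was at 0, 0.0234 and 0 CPM in SCR DMSO and at 3.70, 1.95 and 1.76 CPM in SCR AAI; in siB AAI it reached 9.40, 2.91 and 4.66 CPM (adjusted p 1.4e-04). OSM is the gene next upstream of LIF, 16070 bp away on the same strand. The DMSO libraries held at most 1 read of OSM, so no fold is given, and OSM passed the filter through the AAI libraries alone, so that its calls were bound to be in that direction. In siB cells IL11, an IL-6 family cytokine, was also raised (1.78, SE 0.33, adjusted p 0.00161) and IL18 was lowered (-1.71, SE 0.12, adjusted p 7.9e-06), and IL18 was lower in siB AAI than in SCR AAI (-1.02, SE 0.21, adjusted p 0.0122). IL11, the most abundant of this list, was highest in replicate 1 of both AAI groups (78.7 and 109 CPM, against 37.2 to 43.8 CPM in replicates 2 and 3), whereas IL6 was lowest there. In SCR DMSO IL11 was at 31.1, 59.8 and 11.4 CPM, so replicate 1 was not its highest. The slope of IL11 on IL6 did not pass in limma (-0.28, SE 0.14, adjusted p 0.211). The list's median change was 0.47 in SCR and 0.37 in siB cells. Of 30 other chemokines and cytokines, 12 were tested in SCR cells and none was called. In siB cells 3 of 13 tested were raised, CXCL5 (1.03, adjusted p 9.5e-04), CCL5 (1.23, adjusted p 7.0e-04) and IL12A (1.33, adjusted p 6.3e-04), of which CCL5 passed the filter through siB AAI alone, and CX3CL1, the membrane-bound fractalkine, was lowered (-1.05, adjusted p 1.3e-04). CX3CL1 was also lower in siB AAI than in SCR AAI (-1.05, adjusted p 0.00436). MIF was the most abundant of them (781 CPM), and TNF never reached 1 CPM. The list called the chromosome 4 cluster held 13 CXC genes, of which CXCL9, CXCL10, CXCL11 and CXCL13 lie apart, from base 76001275 on. In it CXCL8 was the only gene called in SCR cells and CXCL5 the only one in siB cells, of 3 tested in each. CXCL8 also rose in siB cells, by 0.80, without reaching 2-fold. Neither response was shown to differ between siRNAs (interaction in limma, adjusted p 0.519 for CXCL8 and 0.367 for CXCL5). The median change of the 30 was 0.12 in SCR and 0.04 in siB cells, and that of the cluster 0.26 and 0.80. Over all genes tested, AAI raised 7.73% and lowered 2.73% in SCR cells, and raised 13.9% and lowered 5.79% in siB cells. For siB against SCR in AAI these shares were 3.04% and 0.629%. They are the background for the lists below as well. A call with either siRNA alone does not show that a response differed between siRNAs. By the interaction test in limma, ANPEP, ITGAM, PECAM1 and ZFP36L2 were the only listed genes to pass, as given further on.

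Of 19 NF-kappaB subunits, inhibitors and kinases, all tested, MAP3K14 (the kinase NIK of the noncanonical pathway) was raised in SCR cells (1.18, SE 0.21, adjusted p 0.00895) and REL, a subunit, in siB cells (1.40, SE 0.23, adjusted p 8.3e-04). In SCR cells REL changed by 1.05 (SE 0.49, adjusted p 0.216). Neither response was shown to differ between siRNAs (interaction in limma, adjusted p 0.897 for REL and 0.121 for MAP3K14). The median change of the list was 0.34 and -0.06, against 0.18 and 0.10 over all genes. IRAK1 was the most abundant (525 CPM). Of the NF-kappaB target genes, 14 of 19 could be tested in SCR cells and 15 in siB cells. TNIP1, an inhibitor of NF-kappaB signalling that is itself a target, was lowered in both (-1.19, adjusted p 0.0207 and -1.47, adjusted p 1.0e-05), as was VCAM1, an adhesion molecule, in siB cells (-1.04, adjusted p 0.0107), and none was raised, with median changes of 0.19 and 0.02. SOD2, the mitochondrial superoxide dismutase, was the most abundant target (263 CPM). Among 12 genes of the C/EBP, STAT3 and SOCS list none was called in SCR cells, IL6ST alone in siB cells, and CEBPD, a factor induced by IL-6 family cytokines, was lower in siB AAI than in SCR AAI (-1.25, SE 0.17, adjusted p 0.00166); the list's median change was 0.15 and -0.15, and JAK1 was the most abundant (325 CPM).

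Of 14 proteins that bind AU-rich elements or take part in decay, none was called in SCR cells and RC3H1 (roquin-1) was raised in siB cells (1.01, SE 0.22, adjusted p 0.00445); median changes were 0.15 and 0.04, and KHSRP was the most abundant (560 CPM). For ZFP36L2, a destabilising AU-rich element binding protein, the AAI response differed between siRNAs (-1.13, SE 0.22, adjusted p 0.0272). It was at 74.2, 80.2 and 89.0 CPM in SCR AAI and at 55.5, 45.8 and 51.5 CPM in siB AAI. Of 13 genes of IL-1 processing and the inflammasome, 12 were in the table. None was called in SCR cells and the protease CAPN1 was lowered in siB cells (-1.05, adjusted p 1.2e-04), CAPN2 was the most abundant (628 CPM), and CASP1, which matures IL-1β, had 1 read in 1 library. The median change of this list was -0.14 in SCR and -0.03 in siB cells. Between siB and SCR with AAI, no gene of the NF-kappaB, NF-kappaB target, AU-rich element or IL-1 processing lists was called, and with DMSO no gene of any list was called.

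Markers of other cells changed in both directions in siB cells with AAI. Of 6 leukocyte markers tested there, PTPRC (1.33, adjusted p 3.0e-04), CD14 (1.28, adjusted p 0.00378) and ITGAM (1.77, adjusted p 1.0e-04) were raised, to at most 4.29 CPM. These 3 were under 1 CPM in every siB DMSO library, so they could enter the test only by being higher with AAI. The other 3 had values below 0, CSF1R of -0.87 (adjusted p 0.00370), ITGAX of -0.30 (adjusted p 0.168) and CD68 of -0.16 (adjusted p 0.284), and the summed level of the list was 85.2 to 97.4 CPM in siB AAI and 87.5 to 108 CPM in siB DMSO. In SCR cells none of 4 was called. Of the fibroblast and endothelial markers, 6 tested, PECAM1 (1.39) and EMCN (1.05) were raised and COL1A1 (-1.37) lowered in siB cells, and none was called in SCR cells; LUM was the most abundant (28.8 CPM). The proximal tubule genes SLC5A2 (1.55) and ANPEP (1.85) were raised in siB cells, SLC5A2 also in SCR cells (1.75, adjusted p 0.00443), while GGT1, the most abundant of the list, changed by -0.53 (adjusted p 0.00182) and SLC34A1 by -0.43 (adjusted p 0.0616). ANPEP and ITGAM were under 1 CPM in every library outside siB AAI. They entered every comparison through siB AAI alone, so a rise was built into their calls. The kidney epithelial genes KRT19 (-1.66, adjusted p 6.9e-05) and CDH6 (-1.10, adjusted p 0.0117) were lowered in siB cells, where 7 of 8 tested passed the adjusted p alone, all lower, against 52.2% of all genes in either direction. None of the 8 was called in SCR cells. In siB AAI against SCR AAI, ANPEP (1.49), ITGAM (1.35) and PECAM1 (1.23) were raised, ANPEP and ITGAM with that limit. Others had values below 0 there, SLC34A1 of -0.77 (adjusted p 0.0388 in limma), COL1A1 of -0.76 (adjusted p 0.137) and CD68 of -0.16 (adjusted p 0.541). In all, 1 of 4 proximal tubule genes tested was lower, as were 2 of 6 leukocyte markers and 2 of 6 fibroblast and endothelial markers. Median changes with AAI in SCR and siB cells were -0.66 and -0.59 for kidney epithelial genes, 0.53 and 0.56 for proximal tubule genes, -0.22 and 0.56 for leukocyte markers, and 0.04 and -0.02 for fibroblast and endothelial markers. Their part in the changes of CXCL8, LIF and CXCL2 was not tested.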

How the data were processed

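Groups and replicate numbers come from the titles, since the treatment field gave DMSO for all 12 libraries. Paired-end reads had been mapped to hg38 and summed by gene against a UCSC annotation, with analysis on BioJupies; the aligner and the use of strand are not given in the sources used here. The deposited table held log10 values, which the authors made as log10(CPM + 1). CPM (counts per 1000000 reads) was recovered by reversing this, and was a whole multiple of the value of 1 read, within 0.01, for at least 99.9943% of genes in every library, which gave reads and depth. Of all genes, 7627 were at 0 in all libraries and 28 names had been turned into dates. Replicates of a group differed by more than counting noise (chi-square per degree of freedom of at least 4.23).

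Each pair of groups was fitted alone in limma 3.58.1 (R 4.3.3; lmFit, eBayes with trend) on log2(CPM + 1), for genes with at least 1 CPM in at least 3 libraries. Adjusted p-values are limma's (Benjamini-Hochberg over all genes tested), and a call needed both an adjusted p under 0.05 and at least a 2-fold change. This scale understates the fold changes of low genes. The interaction, the slope on IL6 and the replicate number term (moderated F) used all 12 libraries and the adjusted p alone. The fits were tested on simulated data with known changes. Noise there was independent between libraries and held no replicate effect, so libraries set off by replicate number were not covered. Motifs, pentamers and shared 50-base words were counted in Python 3.11.15, with alignment in Biopython 1.88. Promoters came from RefSeq (GRCh38.p14), and positions and transcripts from GENCODE release 44.

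The 10 members and the gene lists (receptors and decoys, other IL-6 and IL-1 family cytokines, other chemokines and cytokines, NF-kappaB components, NF-kappaB targets, the C/EBP, STAT3 and SOCS genes, AU-rich element binding proteins, IL-1 processing, the chromosome 4 cluster, and markers of kidney epithelium, proximal tubule, leukocytes, and fibroblasts and endothelium) were chosen with earlier results of these data known. Named genes were the members, the 5 genes with the highest correlation with IL6 among those with a mean of at least 5 CPM and, per list and comparison, up to 4 called genes by smallest adjusted p plus the most abundant gene. Genes outside that rule (among them CSF2, IER3, the markers with a slope on IL6, CD3E, S100A8, S100A9, CXCR1, CXCR2, CCR2, TNF, CASP1, AC010970.2 and POLR2A) were chosen after their values were seen. Of the 5 genes, 1 is not reported here.

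As alternatives, the pseudocount was set to 0.1, the filter was dropped or set to a mean of at least 5 CPM, libraries were scaled by median ratios, all 4 groups shared the fit, a replicate block was added, voom was run on the recovered reads, the fold limit was dropped, and each library was left out. Replicates 2 and 3 alone, CPM without AC010970.2 and the slope without the 2 libraries farthest from the group mean of IL6 were chosen after seeing the data. Replicate numbers were taken to pair libraries where the deviations of all 3 same-numbered pairs correlated over 0.1 across genes. This held for SCR AAI with SCR DMSO (0.42, 0.47 and 0.34) and for siB AAI with SCR AAI (0.61, 0.32 and 0.29), and comes from the data, since the labels do not say what a number marks.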

Additional observations from a re-analysis of the deposited data

Results flagged for a closer look

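The AAI response of 4 listed genes differed between siRNAs by the interaction test in limma, whereas that of no cytokine member did. Given as the response in siB cells minus that in SCR cells (log2), the difference was 1.62 for ANPEP (SE 0.26, adjusted p 0.0110), 1.5 for ITGAM (SE 0.26, adjusted p 0.0146), 1.30 for PECAM1 (SE 0.27, adjusted p 0.0314) and -1.13 for ZFP36L2 (SE 0.22, adjusted p 0.0272). ANPEP, a brush border peptidase, was at 0.323, 0.0467 and 0.294 CPM in SCR DMSO and at 0.607, 0.317 and 0.352 CPM in SCR AAI, and at 0.128, 0.0902 and 0.112 CPM in siB DMSO and 4.17, 2.82 and 2.25 CPM in siB AAI. ITGAM and PECAM1 likewise reached 2.63 CPM or more in siB AAI alone. ZFP36L2 changed by 0.91 with AAI in SCR cells and by -0.22 in siB cells. With a mean of at least 5 CPM, and with voom, no gene of the table passed the interaction test. ANPEP and ITGAM reached 1 CPM in siB AAI libraries alone and passed the filter through them, so a positive difference was built into their entry and their p-values are a description only.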

How the results depend on the processing

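The count of called members in SCR cells with AAI went from 1 to 0 with median-ratio scaling and with replicates 2 and 3 alone, and ran from 0 to 1 with a library left out. In siB cells it went from 0 to 1 with a pseudocount of 0.1 and to 3 with no fold limit, and ran from 0 to 1 with a library left out. For siB against SCR in AAI it was 1 with replicates 2 and 3 alone and ran from 0 to 2 with a library left out, while in DMSO and for the interaction it was 0 in every alternative run. The count tracking IL6 went from 1 to 0 with the replicate block, with replicates 2 and 3 alone and without the 2 libraries farthest from the group mean of IL6, and ran from 0 to 1 with a library left out. The count with a replicate number term ran from 0 to 2 with a library left out. The residual SD of IL6 was 0.11 with replicates 2 and 3 alone and 1.12 to 1.56 with a library left out. The replicate block changed no other count of members called. Where not every same-numbered pair correlated over 0.1 (0.21, 0.03 and 0.19 in siB cells; 0.73, 0.59 and -0.19 in DMSO) it left the counts at 0. With a library left out, changes that turned sign ran from -0.42 to 0.63 for CXCL2 with AAI in SCR, from -0.86 to 0.49 for IL6 with AAI in siB, from -1.91 to 0.14 for IL6 for siB in AAI and, for siB in DMSO, from -0.24 to 1.05 for IL6, -0.13 to 0.30 for LIF, -0.08 to 0.16 for CXCL8 and -0.18 to 0.13 for CXCL3. The interaction of CXCL3 then ran from -0.12 to 0.19, and the slopes on IL6 from -0.04 to 0.02 for CXCL8 and from -0.07 to 0.08 for CXCL3. Sign also turned with replicates 2 and 3 alone for CXCL2 with AAI in SCR (0.46), IL6 with AAI in siB (0.40), IL6, LIF and CXCL3 for siB in DMSO (-0.15, -0.09 and 0.25), the interaction of CXCL3 (-0.41), and the slopes of CXCL8 (1.0) and CXCL2 (-0.45), whose correlation with IL6 was then -0.28. With median-ratio scaling it turned for LIF and CXCL8 for siB in DMSO (-0.05 and -0.04) and for the slope of CXCL8 (0.04), with voom for the interaction of CXCL3 (-0.03), with the replicate block for the slopes of CXCL8 (0.06) and CXCL3 (-0.05), and without the 2 farthest libraries for the slope of CXCL3 (-0.13). The cause was not tested. Over all genes and alternatives, the numbers raised and lowered ran from 474 to 1378 and 83 to 749 with AAI in SCR (1100 and 389 as reported), from 882 to 4535 and 713 to 3259 in siB (2080 and 864), and from 134 to 820 and 44 to 567 for siB in AAI (454 and 94). For siB in DMSO 8 genes were raised and 1 lowered with all 4 groups in the fit. The interaction called 247 genes as reported, 0 with voom or a mean of at least 5 CPM, and 498 positive and 512 negative without SCR DMSO replicate 2. The slope on IL6 called 820, from 0 with the block to 2771 without SCR DMSO replicate 2, and 19 without SCR AAI replicate 1. The 6 weakest members rested on at most 48 reads a library, which limits what could be seen in them.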
